A study of Mus musculus with 9 samples.

Results

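The Polycomb, heterochromatin and DNA methylation machinery was followed as a set of 48 genes in D2A1-d cells, a mouse breast carcinoma line, with and without knockdown of Med4, which encodes a subunit of Mediator, the coactivator between DNA-bound factors and RNA polymerase II. The genes were taken by symbol from 55335 gene identifiers. They were chosen for their function, with earlier results of these data known. Of them, 10 encode the Polycomb repressive complex PRC2 and its cofactors and 19 PRC1 and the opposing deubiquitinase PR-DUB. Another 13 encode HP1 proteins, H3K9 methylation factors and nuclear lamina proteins, and 6 encode DNA methylation factors and HMGA proteins. Of the 48 genes, 47 passed the filter on low counts, which left 14335 genes for testing. The exception was Hmga2, with 10 reads over the control libraries, 13 over those of shMed4 #1 and 14 over those of shMed4 #4.

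Total RNA was sequenced from 9 libraries, 3 biological replicates in each of 3 groups. The control cells, wild type by their label, were transduced with a non-targeting control (NTC). The cells of the other groups, Med4 knockdown by their label, were transduced with 1 of 2 short hairpin RNAs against Med4, shMed4 #1 or shMed4 #4. All cells were otherwise untreated and grown as the same line in serum-containing medium. The labels name biological replicates but not whether they were separate transductions, so the p-values measure the spread between these samples. Each library held 7572114 to 8582235 reads assigned to genes. Med4 itself had 236, 216 and 204 reads in the control libraries, 40, 35 and 38 with shMed4 #1 and 66, 60 and 50 with shMed4 #4. Its log2 fold changes were -2.59 (SE 0.14) and -1.92 (SE 0.13), and more remained with shMed4 #4 (log2 difference 0.67, SE 0.18, edgeR adjusted p = 0.00401). Of the markers of the labelled cell type, Cdh1 and Elf5 had 0 reads in all libraries and Epcam was at or near 0, whereas the mesenchymal filament gene Vim had a mean of 1950 CPM (counts scaled to the library total) in the control. The epithelial keratin gene Krt18 rose from a mean of 20.4 CPM to 80.8 and 133 CPM, and Vim fell to 1501 and 1101 CPM, with shMed4 #1 and shMed4 #4. Leukocyte markers summed to 11.1 to 17.3 CPM over all libraries, most of it Csf1r at 10.4 CPM in the control, and Cd3e was at 0; of the 2 tested, Lyz2 fell (-1.45 and -1.75). Of 7 fibroblast markers 4 were tested, and all 4 were called with both hairpins: Col1a1 (1.59 and 1.73) and Col1a2 (1.44 and 2.14) rose, and Pdgfra (-0.73 and -1.09) and Pdgfrb (-0.32 and -0.33) fell. Their list summed to 263 to 296 CPM in the control, 235 to 252 with shMed4 #1 and 229 to 247 with shMed4 #4, without overlap with the control. Of 5 endothelial markers, 1 was tested, Cdh5, which rose by 1.55 and 1.41 from 0.832 CPM. The part of these marker changes in the members' results was not tested.

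Polycomb proteins keep developmental genes silent. PRC2 methylates histone H3 at lysine 27 through EZH1 or EZH2, and PRC1 compacts chromatin and ubiquitinates histone H2A. HP1 proteins bind methylated H3K9 and, with the lamina, hold constitutive heterochromatin, while DNA methyltransferases set and maintain methylation of CpG sites. Many of these proteins come as alternative paralogs, so the choice of paralog as well as the amount defines a cell's repressive complexes.

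A gene was called changed where edgeR's quasi-likelihood test gave a Benjamini-Hochberg adjusted p under 0.05 over all genes tested. With shMed4 #1, 12 members rose and 10 fell, 46.8% of the 47 tested, against 41.6% of all genes tested (21.8% higher and 19.8% lower). With shMed4 #4, 14 rose and 14 fell, 59.6% of members against 55.1% of all genes (27.8% higher and 27.3% lower). The same direction was called with both hairpins for 16 members (34.0%), 8 higher and 8 lower, against 33.3% of all genes (17.4% higher and 15.8% lower). These shares lay close to those of all genes. The 2 hairpin comparisons share their 3 control libraries and are therefore not independent of each other. The changes were mostly small: 1 member moved at least 2-fold with shMed4 #1 and 2 with shMed4 #4, against 6.4% and 11.1% of all genes, and the median absolute log2 fold change was 0.14 and 0.27, against 0.21 and 0.28 over all genes. In a bulk library, fewer cells carrying an RNA and less RNA per cell cannot be told apart. The median signed change was 0.01 and 0.05 for the members and -0.01 and -0.01 for all genes.

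The genes higher with both hairpins were Ezh2, Mtf2, Rybp, Cbx3, Cbx5, Lbr, Dnmt1 and Uhrf1, and those lower with both were Ezh1, Jarid2, Phf1, Pcgf5, Phc3, Setdb1, Ehmt1 and Dnmt3b. In 14 of these 16 the change was larger in size with shMed4 #4, the hairpin that left more Med4 RNA. Changes were larger with shMed4 #4 over all genes tested as well, with a median size of 0.28 against 0.21. The count of larger changes was not made over all genes. Cbx6 was called in opposite directions, as were 0.788% of all genes. Another 5 members passed with shMed4 #1 alone (Rbbp7, Suv39h1 and Hdac1 higher, Cbx2 and Bmi1 lower) and 11 with shMed4 #4 alone (Phf19, Phc1, Phc2, Trim28, Hdac2 and Hmga1 higher, Cbx7, Ring1, Kdm2b, Bap1 and Dnmt3a lower). No call was made with either hairpin for 14 members: Eed, Suz12, Rbbp4, Cbx8, Rnf2, Pcgf1, Pcgf2, Pcgf3, Pcgf6, Asxl1, Cbx1, Suv39h2, Ehmt2 and Lmnb1. Their log2 fold changes lay between -0.22 and 0.14, with standard errors of 0.05 to 0.15.

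**Figure D1:**
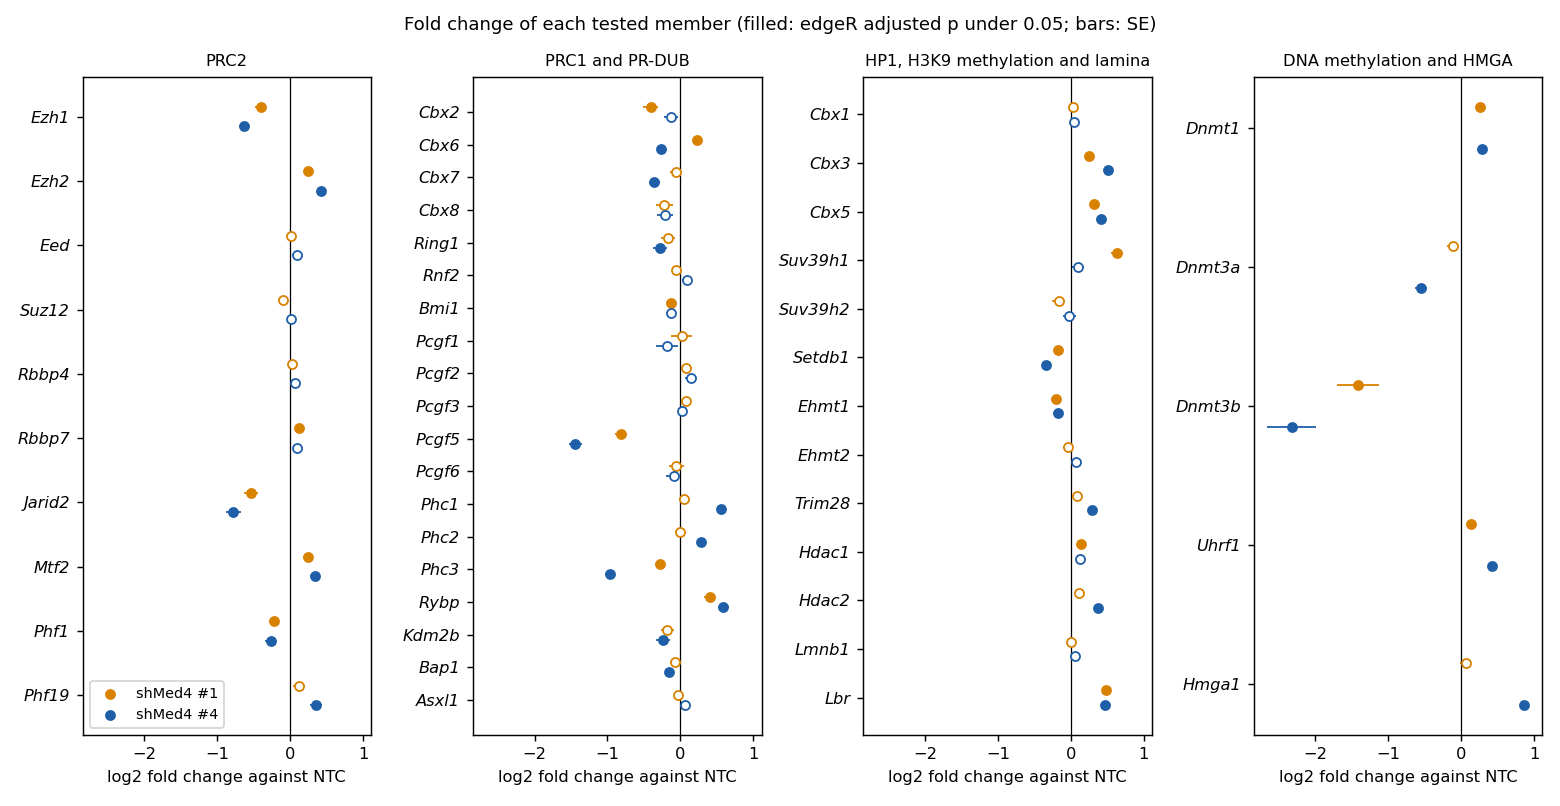
Log2 fold change against the control for each tested member with shMed4 #1 and with shMed4 #4, from edgeR, by complex, with bars of 1 standard error and filled points for calls. Dnmt3b and Pcgf5 lie farthest to the low side with both hairpins, and Hmga1 farthest to the high side with shMed4 #4.

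In the control cells the members spanned a wide range of expression. Per length, as TPM (reads per exon length, scaled to the library), Rbbp7, a histone-binding subunit shared with deacetylase complexes, was the most abundant at 261 TPM, followed by the corepressor gene Trim28 at 187, the lamin gene Lmnb1 at 173, Uhrf1 at 149 and Cbx5 at 131 TPM. The lowest tested members were Dnmt3b at 2.35 TPM, Jarid2 at 8.46, Kdm2b at 8.57, Dnmt3a at 9.43 and Pcgf5 at 12.1 TPM, and the median member stood at 51.3 TPM. Several of the genes that fell most were thus already among the least abundant. Hmga2 stood at 0.195 TPM.

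**Figure D2:**
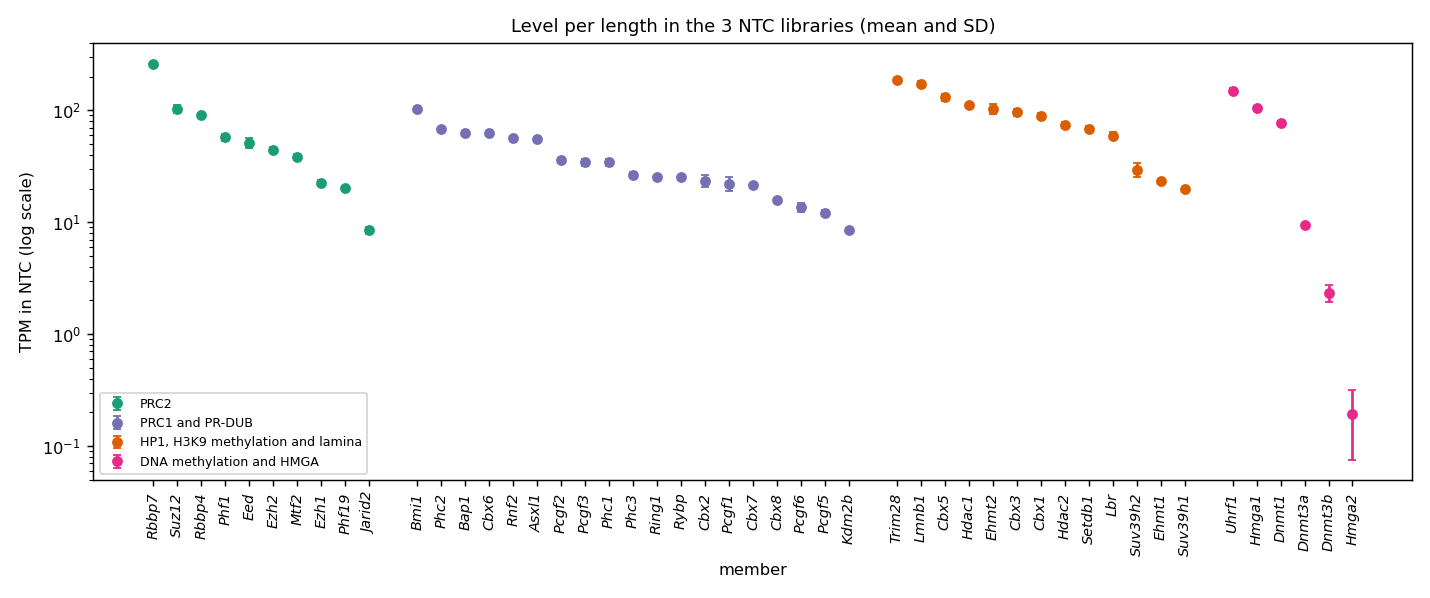
Mean level of each member in the 3 control libraries in TPM on a log axis, with bars of 1 SD, grouped by complex. The tested members run from Dnmt3b at 2.35 TPM to Rbbp7 at 261 TPM, and Hmga2 lies below all of them.

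Within PRC2 the 2 catalytic paralogs moved in opposite directions. Ezh1, whose enzyme predominates in resting cells (chr11:101191115-101226463, GRCm38, minus strand), had 50.5, 51.0 and 56.3 CPM in the control libraries, 38.9, 41.0 and 39.6 with shMed4 #1 and 34.5, 33.9 and 33.6 with shMed4 #4. Every knockdown library lay below every control library, and the groups did not overlap. Ezh1 fell by 0.40 on the log2 scale with shMed4 #1 (SE 0.07, edgeR adjusted p = 2.66e-05) and by 0.63 with shMed4 #4 (SE 0.08, edgeR adjusted p = 5.34e-09). Ezh2, the paralog of dividing cells (chr6:47530139-47595341, minus strand), had 98.1, 86.8 and 94.4 CPM in the control, 116, 106 and 110 with shMed4 #1 and 122, 129 and 123 with shMed4 #4. Its groups did not overlap either, and it rose by 0.25 (SE 0.06, edgeR adjusted p = 8.7e-04) and 0.42 (SE 0.06, edgeR adjusted p = 1.31e-07). Per length, Ezh1 made up 33.7% ± 1.81 (SD, n = 3) of the Ezh1 and Ezh2 reads in the control, 24.4% ± 1.36 with shMed4 #1 and 19.7% ± 0.589 with shMed4 #4. The share did not overlap between the control and either hairpin. An exact two-sided permutation test over 3 against 3 libraries gave p = 0.1 for both, the smallest this design allows, and 0.164 after adjustment over the 54 such tests of paralog shares.

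Over the 10 PRC2 genes, 3 rose and 3 fell with each hairpin, 60% with each. Of all genes tested, 41.6% were called with shMed4 #1 and 55.1% with shMed4 #4. The summed PRC2 level was 1013 to 1067 CPM in the control, 1053 to 1074 with shMed4 #1 and 1065 to 1106 with shMed4 #4. The core subunits that both paralogs share did not pass: Eed had log2 fold changes of 0.01 and 0.09 (SE 0.07 and 0.07), Suz12 of -0.10 and 0.01 (SE 0.06 and 0.06) and Rbbp4 of 0.03 and 0.06 (SE 0.05 and 0.05) with shMed4 #1 and shMed4 #4. Rbbp7 passed with shMed4 #1 alone (0.12, edgeR adjusted p = 0.0457), a call made in 6 of 18 alternative analyses. Among the cofactors that steer PRC2 to its sites, Jarid2, a DNA-binding subunit, fell. It had 27.2, 26.0 and 24.1 CPM in the control, 19.5, 16.0 and 17.8 with shMed4 #1 and 14.6, 15.5 and 14.8 with shMed4 #4, without overlap between control and knockdown. Its log2 fold change was -0.54 (SE 0.10, edgeR adjusted p = 4.72e-05) and -0.78 (SE 0.11, edgeR adjusted p = 6.89e-08). The 3 Polycomb-like proteins, which bind unmethylated CpG islands, diverged: Mtf2 rose with both hairpins (0.24 and 0.34), Phf1 fell with both (-0.22 and -0.27) and Phf19 rose with shMed4 #4 (0.36) at 0.12 with shMed4 #1. The Phf1 call with shMed4 #1 was lost without control replicate 3 (-0.15) and without shMed4 #1 replicate 1 (-0.15). Among reads of these 3 genes per length, the share of Phf1 went from 49.5% to 42.3% and 39.1% and that of Mtf2 from 33.1% to 38.9% and 39.7%. The Phf1 values are uncertain, because 39.3% of its exonic length overlaps Cuta on the opposite strand, a gene with more reads. Mtf2 overlaps Tmed5 on the opposite strand, also with more reads, over 6.93% of its exonic length. It is not stated whether strand was used in counting.

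**Figure D3:**
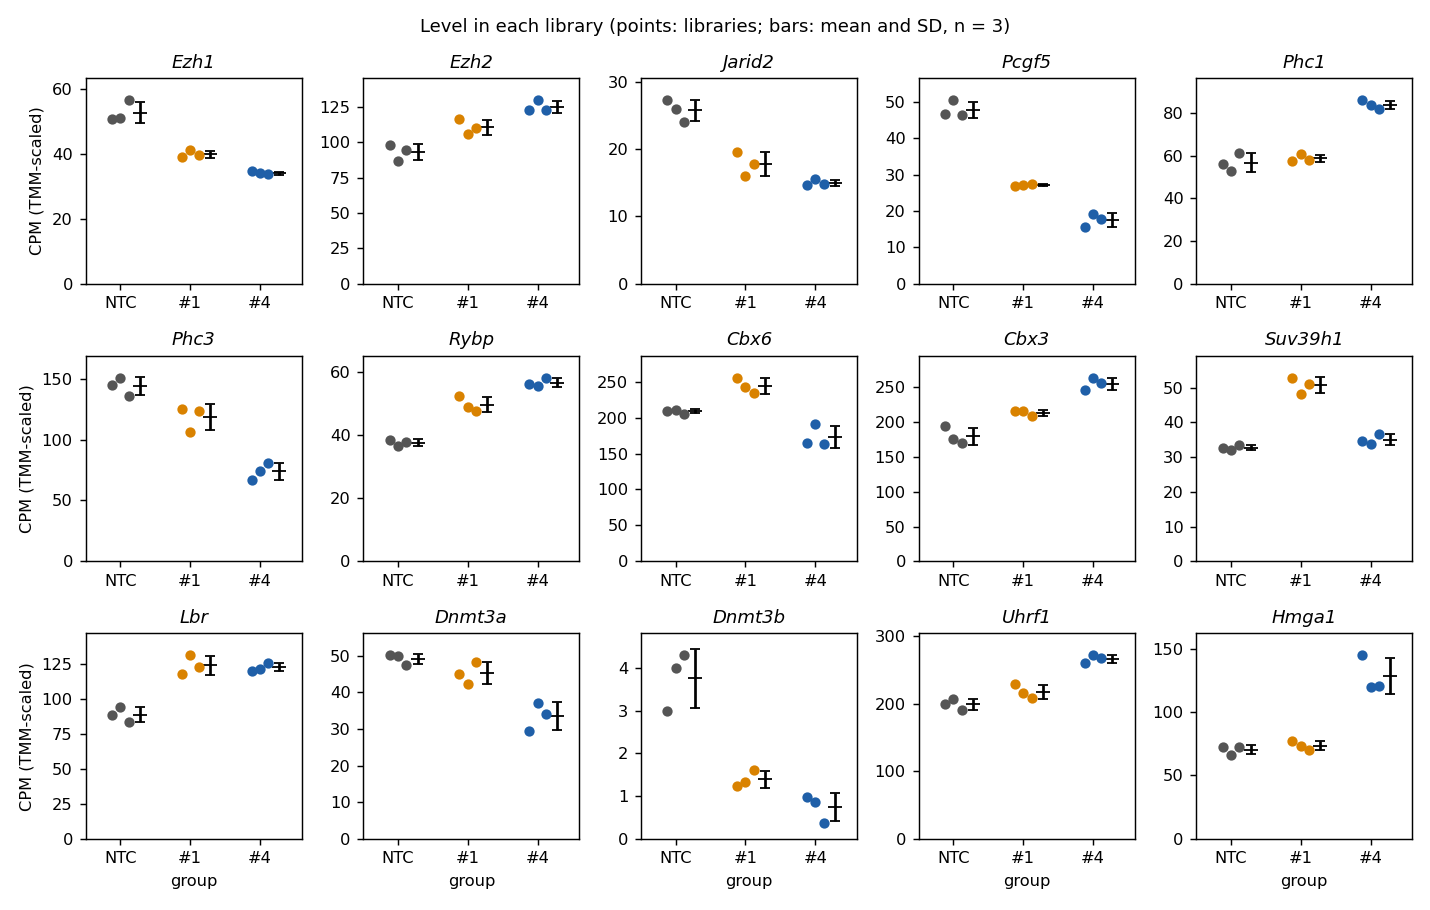
Level in every library, in CPM on linear axes from 0, of 15 members, with points for the 3 libraries of each group and bars for the mean and SD. Ezh1, Jarid2, Pcgf5 and Phc3 step down from control to shMed4 #1 to shMed4 #4, whereas Hmga1 and Phc1 are high in shMed4 #4 alone and Suv39h1 in shMed4 #1 alone.

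In PRC1, the largest change was in Pcgf5, which encodes the ring-finger partner of a variant PRC1 (chr19:36348309-36460970, plus strand). It had 46.5, 50.4 and 46.3 CPM in the control, 26.8, 27.2 and 27.4 with shMed4 #1 and 15.6, 19.24 and 17.8 with shMed4 #4. The 3 groups were fully separate, from control down to shMed4 #4. Pcgf5 fell by 0.81 (SE 0.08, edgeR adjusted p = 2.63e-10) and by 1.44 (SE 0.09, edgeR adjusted p = 1.67e-16), and the hairpins differed by -0.63 (SE 0.10, edgeR adjusted p = 3.61e-06). The other tested ring-finger partners moved little: Bmi1, a subunit of canonical PRC1, had -0.14 and -0.13, and Pcgf1, Pcgf2, Pcgf3 and Pcgf6 lay between -0.18 and 0.14 with no call. The Bmi1 call with shMed4 #1 (edgeR adjusted p = 0.048) was made in 5 of 18 alternatives. Over the 6 partners per length, Pcgf5 made up 5.45% ± 0.235 (SD, n = 3) in the control, 3.27% ± 0.129 with shMed4 #1 and 2.15% ± 0.186 with shMed4 #4, while Bmi1 stayed the largest at 46.7%, 44.7% and 46.0%.

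The polyhomeotic genes, whose products polymerize PRC1 through SAM domains, moved in different directions. Phc3 (chr3:30899371-30969415, minus strand) had 145, 151 and 136 CPM in the control, 125, 106 and 124 with shMed4 #1 and 66.5, 74.2 and 80.8 with shMed4 #4. All knockdown libraries were below the control libraries, and those of shMed4 #4 were the lowest. It fell by 0.28 with shMed4 #1 (SE 0.06, edgeR adjusted p = 4.72e-04) and by 0.96 with shMed4 #4 (SE 0.07, edgeR adjusted p = 5.88e-15). Phc1 (chr6:122317731-122340561, minus strand) had 56.2, 52.8 and 61.5 CPM in the control, 57.8, 60.9 and 58.0 with shMed4 #1 and 86.0, 83.7 and 82.0 with shMed4 #4. It overlapped the control with shMed4 #1 (0.05, SE 0.07) and lay above every other library with shMed4 #4 (0.56, SE 0.07, edgeR adjusted p = 2.73e-09). Phc2 had -0.01 with shMed4 #1 and rose by 0.28 with shMed4 #4. Per length, the share of Phc3 among the 3 genes went from 20.4% ± 1.49 to 17.3% ± 2.04 and 9.21% ± 1.20 (SD, n = 3 each), and that of Phc1 from 26.6% to 28.4% and 34.4%.

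Rybp, which stimulates the ubiquitin ligase of variant PRC1, rose with both hairpins. It had 38.7, 36.6 and 37.9 CPM in the control, 52.6, 49.1 and 47.7 with shMed4 #1 and 56.3, 55.7 and 58.2 with shMed4 #4, with no overlap between any groups. Its log2 fold change was 0.40 (SE 0.07, edgeR adjusted p = 2.97e-05) and 0.59 (SE 0.07, edgeR adjusted p = 8.89e-09). Rybp reads may be shared with, or lost to, 1 annotated pseudogene copy. Of the chromobox genes, which read the methyl mark for canonical PRC1, Cbx6 was the most expressed and was the member called in opposite directions, at 210, 211 and 206 CPM in the control, 255, 242 and 235 with shMed4 #1 and 165, 191 and 164 with shMed4 #4. Cbx6 rose by 0.22 with shMed4 #1 (edgeR adjusted p = 0.00114) and fell by 0.27 with shMed4 #4 (edgeR adjusted p = 1.08e-04). Cbx2 fell by 0.41 with shMed4 #1 (-0.12 with shMed4 #4, not called), Cbx7 fell by 0.36 with shMed4 #4 (-0.07 with shMed4 #1, not called), and Cbx8 had -0.22 and -0.21 (SE 0.11 and 0.11, not called). The ubiquitin ligase genes Ring1 and Rnf2 had -0.28 (called) and 0.09 (not called) with shMed4 #4. Kdm2b, which recruits variant PRC1 to CpG islands, fell by 0.24 and the deubiquitinase gene Bap1 by 0.16 with shMed4 #4. These 2 calls and that of Ring1 were lost in some alternatives, in 6 for Kdm2b, 7 for Bap1 and 1 for Ring1 of 18, the last without shMed4 #4 replicate 3 (-0.22). Over the 19 genes, 2 rose and 4 fell with shMed4 #1, 31.6% against 41.6% of all genes tested. With shMed4 #4, 3 rose and 7 fell, 52.6% against 55.1% of all genes. Their summed level was 1376 to 1407 CPM in the control, 1333 to 1391 with shMed4 #1 and 1279 to 1336 with shMed4 #4.

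**Figure D4:**
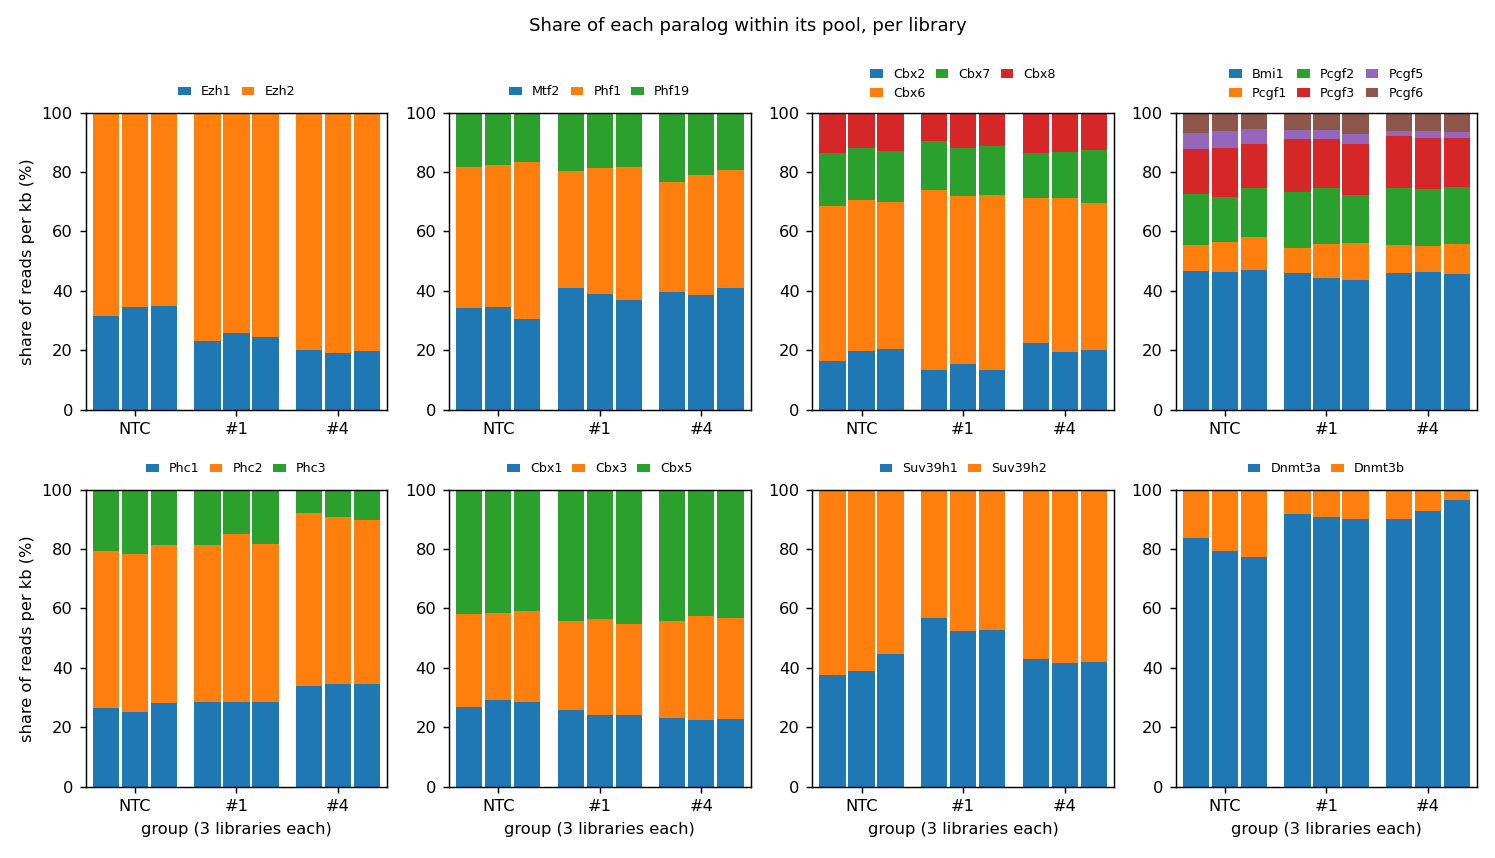
Stacked bars of the share of each paralog among reads per length, in percent, in every library of the 3 groups, for 8 sets of paralogs. Ezh1 falls from about 33.7% to 19.7% of the catalytic subunit reads, and Phc3 from 20.4% to 9.21% of the polyhomeotic reads, between control and shMed4 #4.

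Promoter stretches are shown for 6 members that moved with both hairpins, 4 that fell and 2 that rose, as members that moved together and as examples of the windows searched for motifs. Each is the sequence of up to 200 bases before the RefSeq start in GRCm38.p6, 5′ to 3′ on the gene's strand. It ends at that start, or earlier where an annotated exon of a protein-coding gene begins within it. Capitals mark the letters CCAAT or their reverse complement (the CCAAT box, bound by NF-Y). The stretches of Jarid2 and Lbr lie inside the annotated genes, whose 5′ ends are at chr13:44729474 and chr1:181843046. Whether these starts are used in these cells was not tested. Ezh1 lies at chr11:101226464-101226663 (minus), Jarid2 at chr13:44730574-44730773 (plus), Pcgf5 at chr19:36348129-36348308 (plus), Phc3 at chr3:30969416-30969615 (minus), Cbx5 at chr15:103239853-103240052 (minus) and Lbr at chr1:181842402-181842601 (minus).
Ezh1: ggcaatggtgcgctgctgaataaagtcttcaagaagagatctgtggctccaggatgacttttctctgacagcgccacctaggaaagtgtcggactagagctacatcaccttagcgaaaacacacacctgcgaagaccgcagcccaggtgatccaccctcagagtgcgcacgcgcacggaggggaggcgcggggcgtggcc
Jarid2: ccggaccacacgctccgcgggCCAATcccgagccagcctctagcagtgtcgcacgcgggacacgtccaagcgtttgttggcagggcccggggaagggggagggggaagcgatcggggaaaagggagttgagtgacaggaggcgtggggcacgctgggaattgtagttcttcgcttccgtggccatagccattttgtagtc
Pcgf5: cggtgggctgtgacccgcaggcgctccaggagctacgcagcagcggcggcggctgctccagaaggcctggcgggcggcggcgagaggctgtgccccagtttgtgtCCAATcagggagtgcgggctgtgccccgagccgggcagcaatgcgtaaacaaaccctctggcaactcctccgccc
Phc3: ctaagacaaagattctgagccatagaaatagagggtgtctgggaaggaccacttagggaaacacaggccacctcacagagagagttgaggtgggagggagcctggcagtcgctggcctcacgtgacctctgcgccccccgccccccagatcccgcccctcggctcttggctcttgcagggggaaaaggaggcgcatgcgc
Cbx5: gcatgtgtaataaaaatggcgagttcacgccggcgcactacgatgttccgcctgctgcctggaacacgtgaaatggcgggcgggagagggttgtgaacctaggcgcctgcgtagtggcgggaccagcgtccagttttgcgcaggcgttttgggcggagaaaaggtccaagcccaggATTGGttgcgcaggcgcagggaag
Lbr: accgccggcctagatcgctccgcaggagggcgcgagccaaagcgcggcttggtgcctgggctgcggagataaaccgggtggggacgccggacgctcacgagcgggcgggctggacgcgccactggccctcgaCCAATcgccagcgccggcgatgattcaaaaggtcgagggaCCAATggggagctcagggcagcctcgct
Windows of the 250 bases before a RefSeq start were matched for 42 of the 47 tested members and for 9870 of all genes tested. CCAAT, on either strand, occurred in 15 of the 42 members, 35.7%, against 36.9% of all windows. It was in 5 of the 7 windows of members higher with both hairpins (Cbx5, Dnmt1, Ezh2, Lbr and Uhrf1). Among the 8 windows of members lower with both, 3 held it (Jarid2, Pcgf5 and Setdb1). The Dnmt1 window held 2 CpG sites, the lowest number among the member windows. Whether its start is the one used in these cells was not tested. The 2 groups of windows are small and were not tested against each other. The E2F letters TTTCCCGC, TTTCGCGC, TTTGCCGC and TTTGGCGC, on either strand, were in 3 member windows (Cbx3, Phf19 and Suz12), 7.14% against 3.60%. The GC box GGGCGG, the motif of SP1, was in 85.7% of member windows against 59.6%. Other letters searched were TTTGAA (CHR), in 16.67% of member windows against 10.65%, and TGACGTCA (CRE), in 4.76% against 2.79%. The letters CCGGAAGT (ETS) were in 0% of member windows against 6.38%. The member windows held a median of 22 CpG sites and 67.4% GC, against 16 and 60% over all windows. A match describes letters and not a bound site, and for 13 members RefSeq lists several starts, of which the one nearest to the annotated gene start was used.

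Of the 3 HP1 genes, whose products read methylated H3K9, Cbx3 and Cbx5 rose with both hairpins and Cbx1 was not called. Cbx3, for HP1 gamma (chr6:51470360-51483704, plus strand), had 194, 175 and 171 CPM in the control, 217, 216 and 208 with shMed4 #1 and 246, 264 and 256 with shMed4 #4. The 3 groups did not overlap, and Cbx3 rose by 0.25 (SE 0.05, edgeR adjusted p = 3.06e-04) and 0.50 (SE 0.05, edgeR adjusted p = 3.23e-10). Its reads may be shared with, or lost to, 8 annotated pseudogene copies. Cbx5, for HP1 alpha, rose by 0.31 and 0.42 from 369 ± 24.6 CPM (SD, n = 3). Both calls of Cbx5 were lost, at 0.08 and 0.03, when the median change of its neighbouring genes was taken off, and those of Cbx3 were not. Cbx1, for HP1 beta, had 0.03 and 0.05 (SE 0.06 and 0.06), and its libraries overlapped those of the control. The share of Cbx1 among the 3 genes per length went from 28.2% to 24.7% and 22.8%.

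The H3K9 methyltransferase genes did not move as a block. Suv39h1, for an enzyme of constitutive heterochromatin (chrX:8061171-8074760, minus strand), had 32.7, 32.0 and 33.4 CPM in the control, 52.8, 48.3 and 51.0 with shMed4 #1 and 34.5, 33.8 and 36.8 with shMed4 #4. Its shMed4 #1 libraries lay above all others, a rise of 0.63 (SE 0.08, edgeR adjusted p = 1.33e-08), against 0.10 with shMed4 #4 (SE 0.08, edgeR adjusted p = 0.312), and 14.6% of its exonic length overlaps the antisense gene Gm14820. Its paralog Suv39h2 had -0.17 and -0.02, neither called. Setdb1, whose product Trim28 recruits to silence retroelements, fell by 0.18 and 0.34, while Trim28 had 0.09 and rose by 0.28 with shMed4 #4. Ehmt1 fell by 0.21 and 0.18, and its partner Ehmt2 had -0.04 and 0.07, neither called. With shMed4 #1, the Setdb1 call was lost without control replicate 2 (-0.14) or shMed4 #1 replicate 2 (-0.16), and the Ehmt1 call without shMed4 #1 replicate 2 (-0.18). With shMed4 #4, the Ehmt1 call was lost in 6 of 18 alternatives, among them without control replicate 1, shMed4 #4 replicate 1 or shMed4 #4 replicate 2 (-0.16 each). The deacetylase genes Hdac1 and Hdac2 had 0.14 (called in 8 of 18 alternatives) and 0.11 with shMed4 #1, and 0.13 and 0.37 with shMed4 #4, of which Hdac2 with shMed4 #4 was also called.

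Lbr, for the lamin B receptor that tethers HP1-bound chromatin to the inner nuclear membrane (chr1:181815335-181843046, minus strand), had 88.6, 93.9 and 83.1 CPM in the control, 118, 131 and 123 with shMed4 #1 and 120, 122 and 126 with shMed4 #4. It rose by nearly equal amounts, 0.48 (SE 0.06, edgeR adjusted p = 1.88e-08) and 0.47 (SE 0.06, edgeR adjusted p = 1.82e-08), with all 6 knockdown libraries above the control. The lamin gene Lmnb1 had 0.01 and 0.05 (SE 0.06 and 0.06, not called). Of 10 other lamin and inner nuclear membrane genes tested, 1 was called with shMed4 #1 and 3 with shMed4 #4. That was 10% and 30%, against 41.6% and 55.1% of all genes tested. Over the 13 genes of the HP1, H3K9 and lamina group, 5 rose and 2 fell with each hairpin. That was 53.8% with each, against 41.6% and 55.1% of all genes tested. Their summed level was 1787 to 1889 CPM in the control, 2000 to 2048 with shMed4 #1 and 2136 to 2178 with shMed4 #4.

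Among the DNA methylation factors, Dnmt1 and Uhrf1, which serve maintenance, were called higher with both hairpins. Of the de novo genes, Dnmt3b was called lower with both and Dnmt3a with shMed4 #4 alone. Dnmt1, the maintenance methyltransferase, rose by 0.25 and 0.29 (SE 0.05 and 0.05) from 179 ± 5.27 CPM (SD, n = 3). Uhrf1, which brings DNMT1 to newly replicated DNA, had 199, 207 and 191 CPM in the control, 229, 216 and 208 with shMed4 #1 and 260, 271 and 268 with shMed4 #4. Its shMed4 #4 libraries were above all others, a rise of 0.42 (edgeR adjusted p = 1.01e-08), and its call with shMed4 #1 (0.13, edgeR adjusted p = 0.0483) was made in 6 of 18 alternatives. The de novo gene Dnmt3b was weakly expressed. It had 2.98, 4.00 and 4.30 CPM in the control, 1.24, 1.33 and 1.62 with shMed4 #1 and 0.976, 0.869 and 0.368 with shMed4 #4, from 90, 35 and 18 reads per group. It fell by 1.41 (SE 0.29, edgeR adjusted p = 1.44e-04) and 2.33 (SE 0.34, edgeR adjusted p = 2.81e-07), the widest standard errors of the set. Dnmt3a had 50.1, 49.9 and 47.5 CPM in the control, 45.0, 42.3 and 48.4 with shMed4 #1 and 29.4, 37.0 and 34.1 with shMed4 #4, a change of -0.12 (not called) and a fall of 0.55 (SE 0.08, edgeR adjusted p = 4.32e-07). Since Dnmt3b fell more, the share of Dnmt3a among the 2 de novo genes per length went from 80.1% ± 3.33 to 90.9% ± 0.803 and 93.2% ± 3.20 (SD, n = 3 each). Dnmt3a reads may be shared with, or lost to, 1 annotated pseudogene copy.

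Hmga1, for a chromatin protein that bends AT-rich DNA and displaces linker histone (chr17:27556497-27563674, plus strand), had 72.1, 66.3 and 72.8 CPM in the control, 77.0, 73.4 and 69.8 with shMed4 #1 and 145, 120 and 120 with shMed4 #4. Only the shMed4 #4 libraries were high. It rose by 0.87 with shMed4 #4 (SE 0.07, edgeR adjusted p = 9.83e-14) and had 0.06 with shMed4 #1 (SE 0.07, edgeR adjusted p = 0.539). Its reads may be shared with, or lost to, the annotated copy Hmga1b. Over the 5 tested genes of DNA methylation and HMGA, 2 rose and 1 fell with shMed4 #1, 60% against 41.6% of all genes tested. With shMed4 #4, 3 rose and 2 fell, 100% against 55.1%.

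Tested against each other, the hairpins differed in 19 members, 11 higher and 8 lower with shMed4 #4, 40.4% against 28% of all genes (14.2% higher and 13.9% lower). The difference was at least 0.5 on the log2 scale in 5 members, Hmga1 (0.81), Phc3 (-0.68), Pcgf5 (-0.63), Suv39h1 (-0.53) and Phc1 (0.51), as it was for 8.85% of all genes. The members whose control and knockdown libraries did not overlap in CPM numbered 26 with shMed4 #1 (55.3%, against 49.1% of all genes) and 36 with shMed4 #4 (76.6%, against 59.6%), and the hairpins did not overlap in 26 (55.3%, against 40.2%).

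Neighbouring genes moved with some members. For each member the median log2 fold change of the 25 tested genes on each side was taken, and it reached 0.20 or more in size with at least one hairpin for 13 members: Jarid2, Phf19, Cbx6, Cbx7, Bmi1, Pcgf5, Phc1, Phc3, Rybp, Cbx5, Suv39h1, Suv39h2 and Setdb1. The same count was not made over all genes tested, so 13 cannot be read as many or few. Around Suv39h1 the neighbours stood at 0.45 and 0.54, around Cbx5 at 0.23 and 0.39, around Rybp at 0.25 and 0.38, around Phc3 at -0.19 and -0.37 and around Jarid2 at -0.26 and -0.44, with shMed4 #1 and shMed4 #4. With the neighbours' median taken off, the calls of Cbx5 were lost with both hairpins (0.08 and 0.03), as were those of Setdb1 (-0.07 and -0.09) and Ehmt1 (-0.02 and 0.02). So were those of Suv39h1 (0.19, edgeR adjusted p = 0.0567), Rybp (0.15), Phc3 (-0.09), Cbx6 (0.04), Hdac1 (0.10) and Bmi1 (0.14, the opposite sign) with shMed4 #1, and Bap1 (-0.10) with shMed4 #4. Ezh1, Pcgf5, Cbx3, Lbr and Dnmt3b stayed called with both hairpins. Other calls were kept at smaller sizes: Jarid2 at -0.28 and -0.34 (against -0.54 and -0.78) and Dnmt1 at 0.16 and 0.16 (against 0.25 and 0.29). With shMed4 #4, Ezh2 went to 0.24 from 0.42, Phc3 to -0.59 from -0.96, Rybp to 0.21 from 0.59, Phc1 to 0.32 from 0.56, Phc2 to 0.16 from 0.28 and Dnmt3a to -0.37 from -0.55. Some calls grew, with shMed4 #4 Cbx6 to -0.48 from -0.27, Cbx7 to -0.57 from -0.36, Phf19 to 0.56 from 0.36, Trim28 to 0.43 from 0.28 and Kdm2b to -0.38 from -0.24, and with shMed4 #1 Rbbp7 to 0.24 from 0.12 and Uhrf1 to 0.20 from 0.13. What moves the neighbourhoods was not tested.

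**Figure D5:**
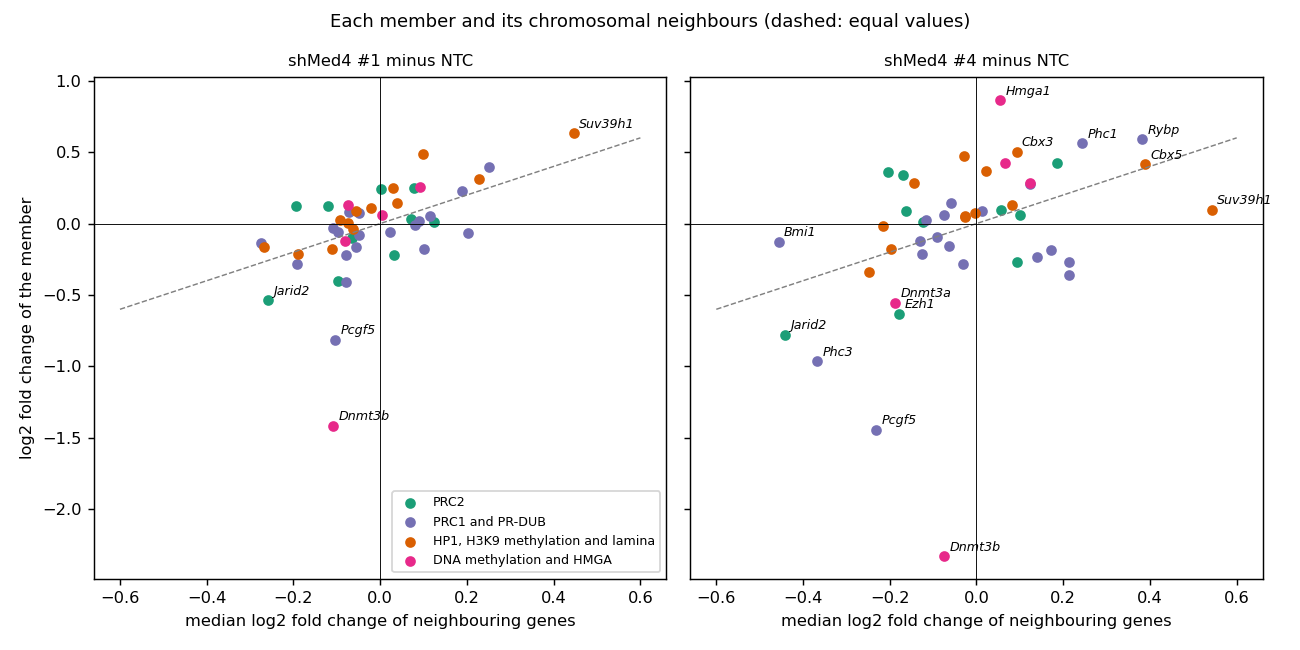
Log2 fold change of each tested member against the median log2 fold change of its neighbouring genes, up to 25 on each side, for each hairpin. Cbx5, Rybp, Jarid2 and Phc3 lie away from 0 on both axes with each hairpin, and Suv39h1 with shMed4 #1 alone. With shMed4 #4, Suv39h1 stands at 0.10 with neighbours at 0.54. Dnmt3b changes with neighbours at -0.11 and -0.07. Dashed lines mark equal values and the colours the complexes.

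Other genes of the same pathways also moved both ways. Of all genes tested, 33.3% were called in the same direction with both hairpins, 17.4% higher and 15.8% lower. That share was 45.8% for further Polycomb cofactors and demethylases and 32.1% for further H3K9 and HP1 factors. It was 56.2% for further DNA methylation factors and 43.8% for deacetylase complex genes. Of 24 tested Polycomb cofactors and H3K27 demethylases outside the set, 6 rose and 5 fell with both hairpins, with Foxk2 at 0.81 and 0.95, Yaf2, a paralog of Rybp, at 0.34 and 0.46, the PRC2 cofactor gene Lcor at -0.70 and -0.74 and Ogt at -0.36 and -0.56. Of 28 genes listed as further H3K9 and HP1 factors, 4 rose and 5 fell. Among them were Pphln1 of the HUSH complex at 0.41 and 0.50 and the demethylase gene Kdm3b at -0.39 and -0.48. Kmt5a, whose enzyme methylates H4K20 and not H3K9, stood at 0.20 and 0.33, and Morc2a at -0.22 and -0.43. Of 16 further DNA methylation factors, 4 rose and 5 fell, with the Uhrf1 paralog Uhrf2 at -0.49 and -0.55, the methyl-CpG readers Zbtb4 at -0.62 and -1.07 and Mbd1 at -0.33 and -0.66, and the imprint keeper Zfp57 at 0.30 and 0.65. Of 16 deacetylase complex genes, 3 rose and 4 fell, with Sin3b at -0.38 and -0.44, Sap30 at -0.41 and -0.36, Chd3 at 0.22 and 0.37 and Sap18 at 0.24 and 0.20.

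Of the genes that these systems are known to silence, those tested gave no common direction with both hairpins. Of 74 developmental factors known as Polycomb targets, 49 had a mean under 1 CPM and 25 were tested. Of the 25, 5 rose and 5 fell with both hairpins, 40% against 33.3% of all genes tested. Cdkn2a, the best known target in growing cells, rose by 0.41 and 0.50, Gata2 by 0.44 and 0.56, Pitx1 fell by 1.23 and 1.28 and Otx1 by 0.46 and 0.50. These 4 had a mean of at least 5 CPM over all libraries, and the largest changes of the list were in genes under that level, named after their values were seen: Lhx2 fell by 1.77 and 3.35 from 8.49 CPM and Pax9 by 1.62 and 2.74 from 4.49 CPM, whereas Meis2 rose by 2.97 and 3.80 from 0.587 CPM. Of 40 germline genes silenced by DNA methylation, 35 had a mean under 1 CPM and 5 were tested. With both hairpins, 1 rose, Tdrkh by 1.50 and 2.30, and 1 fell, Dpep3 by 1.55 and 3.49, 40% against 33.3%. With shMed4 #1 alone considered, 1 rose and 1 fell, 40% against 41.6% of all genes. With shMed4 #4, 1 rose and 3 fell, 80% against 55.1%. Of 36 imprinted genes, 26 had a mean under 1 CPM and 10 were tested. With both hairpins, 1 rose and 2 fell, 30% against 33.3%, and 1 was called in opposite directions. Peg3 rose by 2.96 and 3.08 and Kcnq1ot1 fell by 0.77 and 1.17. With shMed4 #1 alone considered, 2 rose and 2 fell, 40% against 41.6%. With shMed4 #4, 2 rose and 4 fell, 60% against 55.1%. Of 41 DNA replication and mitosis genes, 20 rose and 1 fell with both hairpins. That was 51.2%, against 33.3% of all genes tested (17.4% higher and 15.8% lower). Their summed level was 5580 to 6070 CPM in the control, 6369 to 6613 with shMed4 #1 and 6503 to 6536 with shMed4 #4. Ezh2, Uhrf1 and Dnmt1, which serve replicating cells, rose beside Ccne2 (0.60 and 0.61), Rrm1 (0.42 and 0.48), Plk1 (0.45 and 0.64) and Ccne1 (0.60 and 0.94). The part of the replication genes in the members' changes was not tested.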

How the data were processed

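RNA of 9 libraries from D2A1-d cells was sequenced (BGISEQ-500 platform, per the labels' protocols). The authors deposited raw counts per gene for each library. Per the submitters' processing notes, STAR and HTSeq were used with mm10 and GRCm38, with annotation release and strandedness not given in the sources used here. Gene symbols, places and exon lengths came from GENCODE M21 and RefSeq GRCm38.p6. Reads in no feature (49.5% to 51.6%), multi-mapped (10.5% to 11.6%) and ambiguous (0.863% to 0.951%) stayed out of the totals.

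The counts were fitted in one 3-group model with edgeR 4.0.16 (R 4.3.3, TMM factors of 0.969 to 1.03, filterByExpr with a minimum count of 10, quasi-likelihood test), and p-values were adjusted by Benjamini-Hochberg over 14335 genes. CPM were scaled by the TMM factors and TPM used the union of exons. Paralog shares were compared with exact two-sided permutation tests in scipy. Values in every library are given for members called with both hairpins and at least 0.5 in log2 with one, or at least 0.5 apart between hairpins; other genes were named by the smallest larger adjusted p of the 2 hairpins at a mean of at least 5 CPM, up to 4 a list. Cbx6, Uhrf1, Dnmt3a, Ezh2 and Lbr were given in full after their values were seen. The members and lists were chosen with earlier results of these data known. Alternatives included DESeq2 1.42.0, limma 3.58.1 and a fit with the replicate number as a block. The correlation of same-numbered libraries' deviations was -0.059 to 0.035. No shared deviation was seen, which cannot show whether such libraries were prepared together. The fit was tested on simulated data.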

Additional observations from a re-analysis of the deposited data

Results flagged for a closer look

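In 19 members the effect of the 2 hairpins differed by a direct test of shMed4 #4 against shMed4 #1 (edgeR, adjusted p under 0.05). The log2 differences below are shMed4 #4 minus shMed4 #1, and 28% of all genes tested passed this test. In PRC2, Ezh1 differed by -0.23, Ezh2 by 0.17 and Phf19 by 0.24. In PRC1, Cbx2 differed by 0.28, Cbx6 by -0.49, Cbx7 by -0.29, Pcgf5 by -0.63, Phc1 by 0.51, Phc2 by 0.29, Phc3 by -0.68 and Rybp by 0.19. Among heterochromatin factors, Cbx3 differed by 0.26, Suv39h1 by -0.53, Setdb1 by -0.16, Trim28 by 0.20 and Hdac2 by 0.26. Among DNA methylation and HMGA factors, Dnmt3a differed by -0.43, Uhrf1 by 0.29 and Hmga1 by 0.81. The calls for Ezh1, Ezh2, Phf19, Cbx2, Rybp and Setdb1 were lost in 3 to 8 of 18 alternatives, and the other 13 were made in each. Cbx6 changed in opposite directions with the hairpins, and Suv39h1 rose with shMed4 #1 alone. The hairpins also differed in how much Med4 RNA they left, by 0.67 on the log2 scale. Whether that or the hairpins' other effects moved these genes was not tested.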

How the results depend on the processing

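Of 69 calls of members, 45 were made in each of 18 alternatives and 24 were lost in at least one. Over the alternatives other than leaving out a library, the count of members higher with shMed4 #1 was 9 to 12 and lower 8 to 10, higher with shMed4 #4 14 to 18 and lower 11 to 15, higher between hairpins 8 to 12 and lower 6 to 8, higher with both 7 to 9 and lower with both 7 to 9. Leaving out each library in turn gave 9 to 12, 7 to 10, 14 to 15, 11 to 14, 7 to 12, 6 to 8, 7 to 9 and 6 to 8 in the same order. Without shMed4 #1 replicate 3, 7 members were higher between hairpins, against 11. Taking off the neighbours' shift reversed Bmi1 to 0.14 with shMed4 #1 and 0.33 with shMed4 #4, Suv39h1 to -0.44 with shMed4 #4 and Ehmt1 to 0.015 with shMed4 #4. With the longest transcript as length, the change in the share of Bmi1 with shMed4 #4 was 0.0198 points, against -0.684. Same-numbered libraries showed no shared deviation. With the replicate number as a block, 9 members were higher and 9 lower with shMed4 #1, and 14 and 14 with shMed4 #4. With both hairpins the counts were 7 and 8. Precision is limited by 3 libraries a group and, for Dnmt3b, by 18 to 90 reads a group.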
